A study of Mus musculus with 4 samples.

Results

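The cells described here are Kit+ mouse bone marrow cells with transcripts of Pf4, platelet factor 4, the chemokine stored in platelet alpha granules, and of Itga2b, the integrin chain CD41. They were chosen from single-cell RNA libraries by raw UMI counts (unique molecular identifiers, 1 per captured transcript). Barcodes entered with 1000 UMIs and 500 genes or more and mitochondrial transcripts of no more than 10%. A Pf4+ cell then had at least 3 UMIs of Pf4, at least 1 of Itga2b, fewer than 10 of Car1 (erythroid), fewer than 5 of Elane (granulocytic) and fewer than 5 of Cd79a (B lineage). This gave 854 Pf4+ cells among 38887 kept cells of the 3 Kit+ libraries.

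Megakaryocytes are the marrow cells that shed platelets. They arise from stem and progenitor cells, and they share a bipotent ancestor and the factor Gata1 with the erythroid lineage. As they mature they put platelet receptors on their surface, such as the glycoprotein Ib-IX-V complex that binds von Willebrand factor, and they fill alpha granules with secreted proteins. Mast cells and basophils also derive from Kit+ progenitors that use Gata2 and Gata1.

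The study asks what the histone methyltransferases MLL3 (Kmt2c) and MLL4 (Kmt2d) do in blood stem cells, and how far this depends on their enzymatic activity. All cells were sorted as CD45.2+ from mouse bone marrow 10 weeks after transplantation, and all 3 libraries used here were Kit+: control, Mll3/4 deleted, and a library labelled Mll3/4SI, whose letters the labels do not expand. Another library held control B220lo cells. The labels name no Cre line, no age or sex, no number of mice and no control genotype, and each group is 1 library, so no difference below has a replicate check. Intervals are exact 95% intervals for counting error only, and no test was made.

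The Pf4+ cells numbered 487 in the control library, 357 in Mll3/4SI and 10 in Mll3/4 deleted. Their summed depth was 5206710, 4562007 and 201646 UMIs, with medians of 9944, 11611 and 20907.5 UMIs per cell, so the 10 deleted cells give summed values only. Levels are CPM, UMIs of a gene per 1000000 UMIs summed over the Pf4+ cells of a library. Log2 ratios use CPM plus 1. The kit reads the 5′ ends of transcripts, so CPM was not divided by gene length. In the whole Kit+ libraries, kept cells numbered 11891 to 14915 and median depth ran from 6832 to 12349 UMIs. Over all deposited barcodes, the deleted library held 149 CPM of 4 Y-linked genes, against 0.0244 in control and 0.0301 in Mll3/4SI. Barcodes of 22 of 487 control and 9 of 357 Mll3/4SI Pf4+ cells also occurred in another Kit+ library. Among all kept cells, 454 of 11891 in control and 449 of 12081 in Mll3/4SI did so. Between the Pf4+ cells of different libraries 0 barcodes were shared, which says little for sets this small. The source of the deleted cells, or their sex, and the deletion cannot be told apart.

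The sequences shown here are the 250 bases upstream of the annotated start of the 2 genes that define the cells and of the 4 genes of the glycoprotein Ib-IX-V complex, whose ratios between the libraries differed from one another. They come from RefSeq on GRCm38.p6, 5′ to 3′ on the gene's strand. Capitals mark GATAA or its reverse complement TTATC, the core bound by GATA factors, and AGGAAG or its reverse complement CTTCCT, a core bound by ETS factors such as Fli1.
Pf4: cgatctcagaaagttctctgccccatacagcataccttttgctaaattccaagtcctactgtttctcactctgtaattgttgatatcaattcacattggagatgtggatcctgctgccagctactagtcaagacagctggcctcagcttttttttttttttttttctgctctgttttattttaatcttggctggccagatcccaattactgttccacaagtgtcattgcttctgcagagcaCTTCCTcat
Itga2b: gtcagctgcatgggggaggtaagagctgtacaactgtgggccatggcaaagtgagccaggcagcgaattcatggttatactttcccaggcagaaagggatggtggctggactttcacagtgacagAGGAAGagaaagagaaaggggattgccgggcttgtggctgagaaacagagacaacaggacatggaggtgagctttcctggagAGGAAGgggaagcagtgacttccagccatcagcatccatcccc
Gp1ba: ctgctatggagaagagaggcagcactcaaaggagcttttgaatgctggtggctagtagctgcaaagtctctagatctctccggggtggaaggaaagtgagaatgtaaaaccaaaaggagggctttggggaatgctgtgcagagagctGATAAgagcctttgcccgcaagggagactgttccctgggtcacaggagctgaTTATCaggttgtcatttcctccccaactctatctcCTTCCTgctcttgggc
Gp1bb: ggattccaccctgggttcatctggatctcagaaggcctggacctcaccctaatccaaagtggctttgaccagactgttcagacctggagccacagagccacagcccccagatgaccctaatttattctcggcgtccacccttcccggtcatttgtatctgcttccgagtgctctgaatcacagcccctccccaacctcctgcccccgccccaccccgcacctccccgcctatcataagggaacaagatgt
Gp9: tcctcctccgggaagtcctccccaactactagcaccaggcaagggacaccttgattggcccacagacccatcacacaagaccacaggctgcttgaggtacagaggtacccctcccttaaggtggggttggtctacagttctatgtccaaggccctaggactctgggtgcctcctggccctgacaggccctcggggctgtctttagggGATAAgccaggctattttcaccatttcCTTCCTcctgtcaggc
Gp5: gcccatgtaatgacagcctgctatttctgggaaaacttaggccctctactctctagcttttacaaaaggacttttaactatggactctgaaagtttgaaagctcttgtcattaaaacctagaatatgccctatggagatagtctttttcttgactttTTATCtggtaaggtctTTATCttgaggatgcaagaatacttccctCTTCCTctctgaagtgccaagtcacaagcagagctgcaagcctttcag
The stretches lie at chr5:90772185-90772434 (+) for Pf4, chr11:102469884-102470133 (−) for Itga2b, chr11:70638872-70639121 (+) for Gp1ba, chr16:18622404-18622653 (−) for Gp1bb, chr6:87777820-87778069 (+) for Gp9 and chr16:30310782-30311031 (−) for Gp5. Gp1ba, Gp9 and Gp5 held both motifs, Pf4 and Itga2b held the ETS core only, and Gp1bb held neither. In Pf4 the ETS core began 9 bases before the start. Over the 27025 genes with such a RefSeq stretch, 25.5% held the GATA core, 32.3% the ETS core and 7.59% both. Of the 27 megakaryocyte receptor genes listed for this work, 21 had an entry, and 8 of those held the GATA core, 11 the ETS core and 5 both. Of the 22 megakaryocyte granule and secreted genes listed, 14 had an entry, and 3 of those (21.4%) held the GATA core, 8 the ETS core and 2 both. Of 15 mast and basophil genes with an entry, 9 held the GATA core, 6 the ETS core and 3 both. A match of letters is no evidence of binding.

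The rule used Pf4 and Itga2b, so their levels are a description. Pf4 per Pf4+ cell ran from 3 through a median of 19 to 287 UMIs in control, and from 3 through 7 to 247 in Mll3/4SI. The 10 deleted cells had 3, 3, 11, 14, 14, 30, 40, 46, 49 and 51 Pf4 UMIs. Control cells thus spread from the threshold to high counts, and more of the Mll3/4SI cells lay near it. Cells with 30 or more Pf4 UMIs made up 39.0% of control Pf4+ cells (190 cells), 16.2% in Mll3/4SI (58 cells) and 5 of the 10 deleted cells. Summed Pf4 was 3062 CPM in control, 1401 in Mll3/4SI and 1294 in deleted, and summed Itga2b 557, 350 and 288 CPM.

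**Figure D1:**
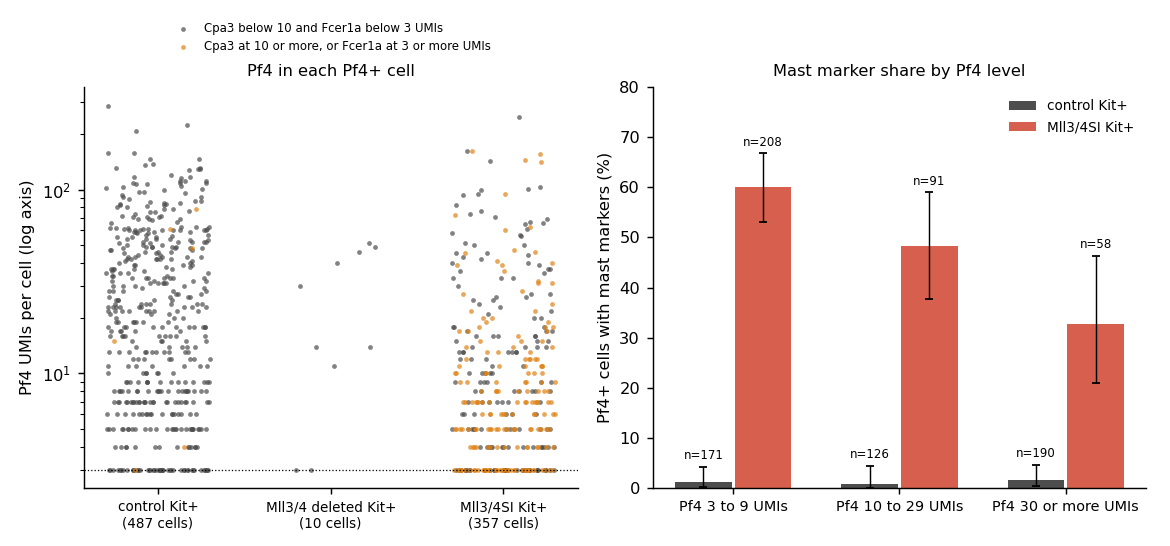
Left: Pf4 UMIs in each Pf4+ cell (log axis, horizontal spread for display only), by library; orange points have Cpa3 at 10 or more or Fcer1a at 3 or more UMIs and the dotted line is the threshold of 3. Right: the percent of Pf4+ cells with those mast cell markers at 3 Pf4 levels, with exact 95% intervals; it is 60.1%, 48.4% and 32.8% in Mll3/4SI, from the lowest Pf4 level to the highest.

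At the threshold itself, 46 control cells had exactly 3 Pf4 UMIs and 66 cells that met the rest of the rule had 2. The cells inside held 49.1 CPM of Vwf and 239 of Cd9, and those outside 20.1 and 188. In Mll3/4SI, 72 cells had 3 Pf4 UMIs and 122 had 2. There Cpa3, a mast cell protease gene, stood at 692 CPM inside and 901 outside, and Fcer1a at 760 and 612. Cd9 was 116 and 65.5 CPM, Gp1bb 17.1 and 16.2, and Vwf 1.22 and 4.54, so neither marker set moved one way across the edge. The edge of the rule in Mll3/4SI thus runs through cells rich in Cpa3, while the control edge held 112 CPM of Cpa3 inside and 141 outside.

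The label, megakaryocyte progenitors, was checked with 18 megakaryocyte genes that the rule did not use, among them Gp1bb, Gp9, Vwf, Treml1 and Fli1. They summed to 5762 CPM in control Pf4+ cells, 4263 in Mll3/4SI and 5138 in deleted. All other kept control cells held 830 CPM, and control Hlf+ cells, which had Hlf and Mecom transcripts of stem cells but no Pf4, held 1180. With every cell thinned to 3000 UMIs, 5 or more of the 18 genes were seen in 440 of 480 control Pf4+ cells (91.7%), 281 of 354 in Mll3/4SI (79.4%) and 9 of 10 deleted cells. The same count was reached by 81 of 696 control Hlf+ cells (11.6%) and 6 of 98 control Klf1+ cells, which had transcripts of the erythroid factor Klf1 and no Pf4. Unthinned, the shares were 99.0%, 97.8% and 100% in Pf4+ cells of control, Mll3/4SI and deleted, and 62.6% in control Hlf+ cells. The markers were unequal. Unthinned, Gp6 was seen in 0.205% of control Pf4+ cells, Clec1b in 9.65% and Ppbp in 11.1%. Rap1b and Nrgn were seen in 98.8% and 97.7% of them, but also in 74.6% and 71.1% of control Hlf+ cells. Gp1bb was seen in 61.8% of control Pf4+ and 1.13% of control Hlf+ cells, and Vwf in 60.2% and 2.54%. By the sum and the thinned count, though not by every marker, the control cells carried the profile that the label names, well above the other cells compared.

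In Mll3/4SI the label is less clear, because many of the cells also carried mast cell markers. Cells with Cpa3 at 10 or more UMIs, or with Fcer1a (the alpha chain of the IgE receptor) at 3 or more, made up 188 of 357 Mll3/4SI Pf4+ cells (52.7%, 47.3 to 57.9). They were 6 of 487 in control (1.23%, 0.453 to 2.66) and 0 of 10 in deleted. The 9 mast and basophil markers summed to 1176 CPM in Mll3/4SI, 58.0 in control and 14.9 in deleted. Of the 9, only Tpsb2 was at 0 in control and in Mll3/4SI, and 7 were at 0 in deleted, where Fcer1a had 2 UMIs. The 5 or more megakaryocyte genes were seen in 131 of 188 Mll3/4SI cells with mast markers (69.7%) and in 150 of 166 without (90.4%). For comparison, they were seen in 222 of 1798 Mll3/4SI Cpa3+ cells that had no Pf4 (12.3%). Unthinned, these shares were 97.3%, 98.2% and 79.8%, so the contrasts were much smaller at full depth. Because of this mixture the cells are called Pf4+ cells throughout, and results are given for all of them and for those without mast markers (481 control and 169 Mll3/4SI cells).

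Free RNA in droplets can give UMIs to cells that do not express a gene, so Fcer1a was also counted in other cells. Among granulocytic cells with 5 or more Elane UMIs, 0.738% in control and 9.93% in Mll3/4SI had 3 or more Fcer1a UMIs. Among Hlf+ cells the shares were 0.705% and 10.9%, and among Klf1+ cells 6.06% (6 of 99) and 3.61% (3 of 83). By the same measure the share was 0.616% in control Pf4+ cells and 50.1% (179 of 357) in Mll3/4SI Pf4+ cells, beside 51.9% of Mll3/4SI Cpa3+ cells. Pf4 itself at 3 or more UMIs was seen in 2.50% of control and 1.81% of Mll3/4SI granulocytic cells, and in 2.32% (11 of 475) and 3.52% (120 of 3413) of cells with 10 or more Cpa3 UMIs. The part of free RNA or of doublets in the cells with both marker sets was not tested beyond these values. A Scrublet doublet score of 0.25 or more fell on 8 of 487 control and 9 of 357 Mll3/4SI Pf4+ cells. Among all kept cells it fell on 846 of 11891 in control and 600 of 12081 in Mll3/4SI.

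Pf4+ cells made up 4.10% of kept control cells (3.75 to 4.47), 2.96% of Mll3/4SI cells (2.66 to 3.27) and 0.0670% of deleted cells (0.0322 to 0.123). The log2 ratio of Mll3/4SI over control was −0.47 (−0.67 to −0.27). With the cells with mast markers left out of the Pf4+ cells but not of the kept cells, the shares were 4.05% and 1.40%. The log2 ratio was then −1.53. For cells with 30 or more Pf4 UMIs the shares of kept cells were 1.60% and 0.480%, and the ratio was −1.73. The cells around them differ as well: kept cells with neither 10 Cpa3 nor 5 Cd79a UMIs numbered 11371 in control, 8643 in Mll3/4SI and 1485 in deleted. Of these, Pf4+ cells were 4.26%, 3.32% and 0.673%, a log2 ratio of −0.36 for Mll3/4SI over control. In each of these denominators the share was highest in control and lowest in deleted. The share in the libraries can also follow the size of the other populations, and sorting on Kit sets the denominator.

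Over the 9066 genes with at least 50 UMIs in the Pf4+ cells of the library with more, 183 (2.02%) were 2-fold or more higher in Mll3/4SI than in control and 136 (1.5%) were 2-fold or more lower. The median gene differed by 0.01 on the log2 scale. In all other kept cells of the same libraries, 94 of the 183 and 39 of the 136 also passed 2-fold in the same direction. Restricted to Pf4+ cells without mast markers, 67 of the 183 and 48 of the 136 remained past 2-fold, and 13 of the 183 had the opposite sign.

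Surface receptors as a group were lower in Mll3/4SI Pf4+ cells. Of 22 receptor genes with 50 UMIs, 7 (31.8%) were 2-fold or more lower, against 1.5% of all genes, and 0 were higher. Among them were Tbxa2r, Treml1, Gp1bb, P2ry1, Cd9 and Esam. The receptor genes outside the rule summed to 2317 CPM in control (2276 to 2359), 1446 in Mll3/4SI (1412 to 1482) and 1389 in deleted (1231 to 1561). In Mll3/4SI the sum was 1938 CPM in cells without mast markers and 987 in cells with them. The median log2 ratio over 23 receptors was −0.70 in all Pf4+ cells, −0.32 without mast markers and −0.09 in the other kept cells. It was −0.41 in Hlf+ cells and −0.40 in Cpa3+ cells, but 0.17 in Klf1+ cells. Lower receptor levels were thus also seen in some, not all, sets of cells without Pf4. In the other kept cells the receptor sum was 298 CPM in control and 326 in Mll3/4SI. The receptor difference in Pf4+ cells was smaller without the cells with mast markers, and their part in it was not tested beyond these values.

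The 4 subunits of the von Willebrand receptor differed in the size of their ratio, and that of Gp9 changed direction without mast markers. Gp1bb, the beta chain of glycoprotein Ib, stood at 150 CPM in control (781 UMIs), 58.8 in Mll3/4SI (268 UMIs) and 109 in deleted (22 UMIs), a log2 ratio of −1.34 for Mll3/4SI over control. Gp1bb overlaps Sept5 on the same strand, so its count is uncertain. Gp9 stood at 139, 100 and 29.8 CPM, and its ratio went from −0.46 in all Pf4+ cells to 0.40 without mast markers. Gp5 was level between control and Mll3/4SI, at 139 and 138 CPM (ratio 0.993, 0.891 to 1.11), and lower in deleted at 44.6. Gp1ba, the ligand-binding alpha chain, was low throughout at 19.0, 14.3 and 0 CPM, and a count of 0 in the deleted cells allows up to 18.3 CPM. Of the 4, Gp1bb was thus lower with and without mast markers (−0.63 without), Gp5 differed by less than counting error, and Gp9 turned direction.

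Cd9, a tetraspanin of the platelet surface, was 623 CPM in control, 274 in Mll3/4SI and 546 in deleted. The ADP receptor gene P2ry1 was 55.3, 23.5 and 54.6 CPM. Both were near the control level in the deleted cells, and control was 2.27-fold and 2.36-fold above Mll3/4SI. Treml1, a receptor of alpha granule membranes, was 122, 46.7 and 39.7 CPM, and the thromboxane receptor gene Tbxa2r 54.0, 19.9 and 29.8. Without mast markers the log2 ratios of these 4 genes lay between −0.48 and −0.62, and none of them passed 2-fold there. Itgb3, the integrin partner of CD41, was 129 CPM in control, 146 in Mll3/4SI and 134 in deleted. The thrombin receptor gene F2r, at 147 and 155 CPM, and the P-selectin gene Selp, at 74.3 and 85.7, were also at similar levels in control and Mll3/4SI. The lower receptors were thus not the whole group.

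**Figure D2:**
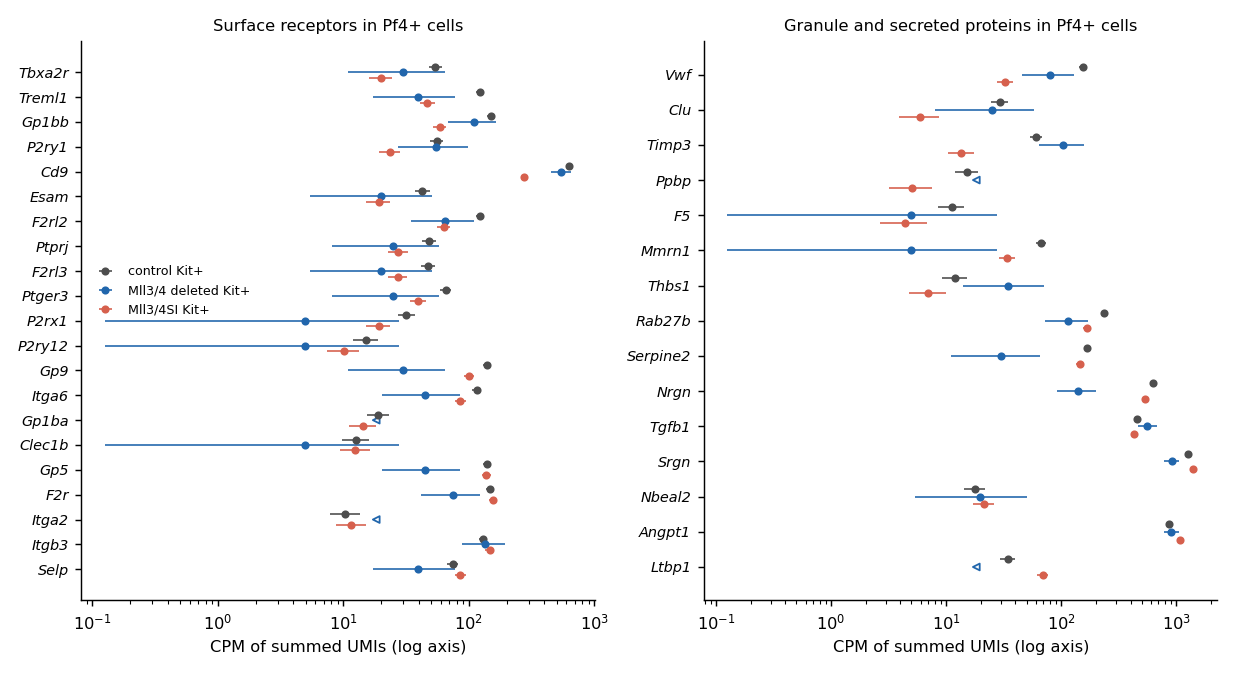
CPM of summed UMIs (log axis) with exact 95% Poisson intervals in the Pf4+ cells of the 3 libraries, for named receptors and for granule and secreted proteins with 50 or more UMIs in control or Mll3/4SI; open triangles mark the upper limit where the deleted cells had 0 UMIs. Genes are ordered by the ratio of Mll3/4SI over control, so Tbxa2r and Vwf, with the lowest log2 ratios of CPM plus 1, stand at the top.

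Among granule and secreted proteins, 5 of 15 genes (33.3%) were 2-fold or more lower in Mll3/4SI, against 1.5% of all genes, and 0 were higher, against 2.02%. The granule genes outside the rule still summed to similar levels, 4041 CPM in control and 3950 in Mll3/4SI, and to 2936 in deleted. The median log2 ratio over 17 granule genes was −0.69, −0.26 without mast markers and 0.19 in the other kept cells. Vwf, which encodes von Willebrand factor (ENSMUSG00000001930, chr6:125546774-125686679, +), was 154 CPM in control (144 to 165), 32.4 in Mll3/4SI (27.4 to 38.1) and 79.4 in deleted (45.4 to 129). Control was thus 4.75-fold above Mll3/4SI, with the deleted cells between them. In control 293 of 487 cells carried a Vwf UMI, and in Mll3/4SI 64 of 357. At 3000 UMIs per cell Vwf was seen in 34.8% of control cells, 12.7% of Mll3/4SI cells without mast markers and 0 of 188 with them, a limit of detection at that depth, since unthinned these shares were 60.2%, 33.1% and 4.26%. Control Hlf+ cells stood at 0.862% at 3000 UMIs. The log2 ratio was −2.21, −1.39 without mast markers and −1.09 in the other kept cells, where Vwf was 4.12 CPM in control and 1.41 in Mll3/4SI.

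Of the other 4 lower granule genes, Clu and Timp3 are given with the deleted cells, where both rest on few UMIs. Clu, the chaperone clusterin, was 29.2 CPM in control, 5.92 in Mll3/4SI and 24.8 in deleted (5 UMIs in 4 cells). Timp3, a metalloproteinase inhibitor, was 60.5, 13.6 and 104 CPM, the last from 21 UMIs in 7 cells. On these counts deleted and Mll3/4SI lay on opposite sides of control for Timp3. Ppbp, a platelet chemokine gene next to Pf4 on chromosome 5, was 15.2 and 5.04 CPM in control and Mll3/4SI, and coagulation factor gene F5 was 11.1 and 4.38. Without mast markers the log2 ratios were −1.56 for Clu, −1.33 for Timp3, −1.25 for Ppbp and −0.89 for F5. Vwf, Clu, Timp3 and Ppbp therefore kept a ratio past 2-fold in the cells without mast markers, where the 7 receptors did not. Timp3 lies within an intron of Syn3 on the other strand. Serglycin, angiopoietin and transforming growth factor genes did not pass 2-fold: Angpt1, for example, was 867 CPM in control, 1085 in Mll3/4SI and 908 in deleted.

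**Figure D3:**
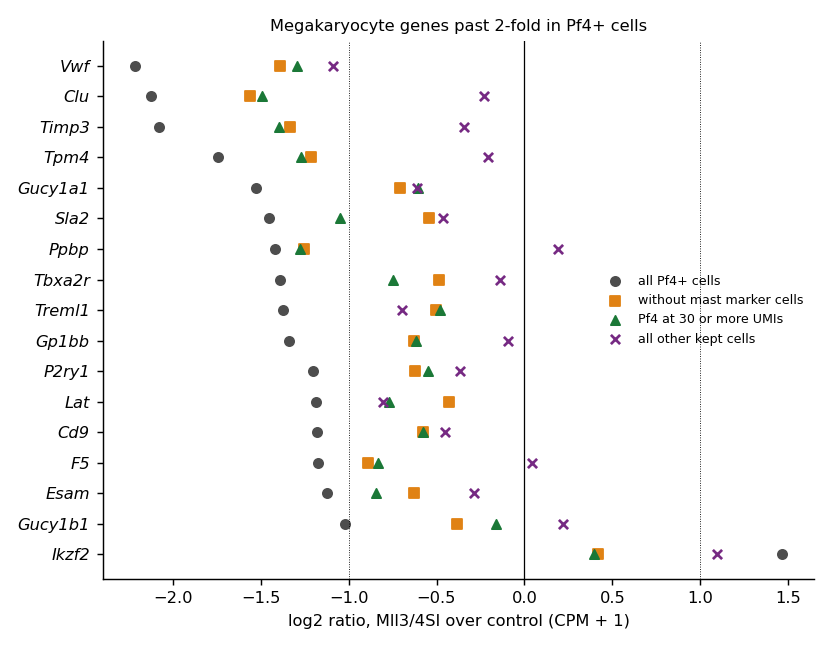
Log2 ratio of Mll3/4SI over control (CPM plus 1) for named megakaryocyte list genes past 2-fold in Pf4+ cells: in all Pf4+ cells, in those without mast markers, in those with 30 or more Pf4 UMIs and in the other kept cells. Vwf stays past 2-fold lower in each, at −2.21, −1.39, −1.29 and −1.09, while Gp1bb runs from −1.34 to −0.63 without mast markers; dotted lines mark 2-fold.

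Transcription factors of the lineage were closer between the libraries. Of 23 compared at 50 UMIs, 1 was higher and 0 lower past 2-fold, near the 2.02% and 1.5% of all genes, and the median log2 ratio was −0.17. Gata1 was 114 CPM in control, 78.5 in Mll3/4SI and 74.4 in deleted, with a log2 ratio of −0.53 in all Pf4+ cells and 0.02 without mast markers. Fli1, the ETS factor of megakaryocytes, was 475 and 365 CPM in control and Mll3/4SI. The gene past 2-fold was Ikzf2 (Helios), 38.6 CPM in control, 108 in Mll3/4SI and 34.7 in deleted. It was 164 CPM in Mll3/4SI cells with mast markers and 48.1 in those without.

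Of 18 cytoskeletal genes, only the tropomyosin gene Tpm4 passed 2-fold, lower in Mll3/4SI at 11.2 against 39.8 CPM, and 1.5% of all genes did so. Of 23 signalling genes 4 were lower, against 1.5% of all genes: Lat and Sla2, adaptors below immunoreceptor-type platelet receptors, and Gucy1a1 and Gucy1b1, the subunits of the nitric oxide receptor guanylyl cyclase. Lat was 141 CPM in control, 61.2 in Mll3/4SI and 34.7 in deleted, and Gucy1a1 60.5, 20.4 and 14.9. Their log2 ratios without mast markers were −0.43 and −0.71. Over all 5 megakaryocyte lists, 17 of 101 genes were lower and 1 higher past 2-fold, against 1.5% and 2.02% of all genes, and the median over 106 genes was −0.28, or −0.13 without mast markers. The same genes had a median of 0.12 in the other kept cells and −0.11 in Hlf+ cells.

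**Figure D4:**
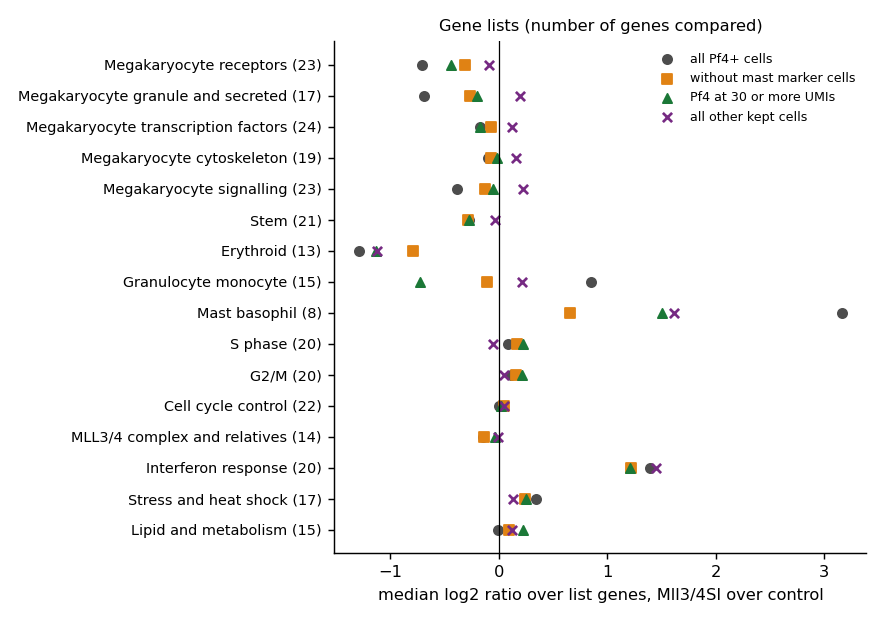
Median log2 ratio of Mll3/4SI over control for each gene list in all Pf4+ cells, in those without mast markers, in those with 30 or more Pf4 UMIs and in the other kept cells. The mast list stands at 3.17, 0.65, 1.51 and 1.61 and the interferon list at 1.39, 1.22, 1.21 and 1.45, while the receptor list is below 0 in each.

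Mast and basophil genes had the highest median of the lists compared, at a log2 ratio of 3.17, or 1.503 with a pseudocount of 10 CPM. Of 8 compared, 6 were 2-fold or more higher in Mll3/4SI Pf4+ cells, against 2.02% of all genes, and 2 of the 9 marker genes helped to define the cells with mast markers. Fcer1a was 9.22 CPM in control, 598 in Mll3/4SI and 9.92 (2 UMIs) in deleted. Cpa3 was 32.1, 455 and 0 CPM. Ms4a2, the beta chain of the IgE receptor, was 4.61, 89.4 and 0 CPM, and Il1rl1, the interleukin 33 receptor, 1.34, 23.7 and 0. In the cells without mast markers the Cpa3 log2 ratio was 1.09 and that of Ms4a2 0.78, on levels of 43.6 and 4.09 CPM in Mll3/4SI. Outside the Pf4+ cells Cpa3 was also higher in Mll3/4SI, 643 against 93.1 CPM.

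Interferon response genes were higher in Mll3/4SI with and without mast markers. Of 19 compared, 11 (57.9%) were 2-fold or more higher, against 2.02% of all genes, and 0 lower. Isg15, a ubiquitin-like modifier, was 15.6 CPM in control, 84.0 in Mll3/4SI and 4.96 (1 UMI) in deleted. Irf7, a transcription factor of the interferon loop, was 11.5, 65.5 and 4.96 CPM, and Ifi27l2a 7.87, 67.7 and 9.92. An Isg15 UMI was present in 61 of 487 control and 121 of 357 Mll3/4SI cells. The median log2 ratio of the list was 1.39 in Pf4+ cells (0.90 with a pseudocount of 10 CPM) and 1.45 in the other kept cells. In Hlf+ cells it was 0.76. The difference was thus also present outside the Pf4+ cells, and library and group cannot be told apart.

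Erythroid genes outside the rule were lower: 4 of 9 passed 2-fold, against 1.5% of all genes, namely Klf1, Car2, Aqp1 and Hbb-bs, and 0 were higher. Car2, a carbonic anhydrase, was 362 CPM in control, 143 in Mll3/4SI and 228 in deleted. Klf1, the erythroid factor, was 24.0, 9.21 and 19.8 CPM. The list's median log2 ratio was −1.29 (−0.55 with a pseudocount of 10 CPM), −0.79 without mast markers and −1.12 in the other kept cells. Of the control Hbb-bs count of 85 UMIs, 32 lay in 1 cell.

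Granulocyte genes had no direction that held across selections. In all Pf4+ cells 6 of 13 passed 2-fold higher, against 2.02% of all genes, and 1, Ltf, lower, and the list's median log2 ratio was 0.85. The median was −0.89 with Pf4 at 5 or more UMIs, −0.76 at 30 or more and −0.11 without mast markers. Mpo was 161 CPM in control, 370 in Mll3/4SI and 9.92 in deleted, and Ms4a3 was 40.7, 182 and 24.8. These rest on few cells for several genes. Of 1573 Camp UMIs in Mll3/4SI, 1338 lay in 1 cell, and of 2874 S100a9 UMIs, 2073 did. Of 21 stem cell genes, 16 had a negative log2 ratio and 5 a positive one, with a median of −0.28, also −0.28 without mast markers and −0.38 in Hlf+ cells. Of 18 with 50 UMIs, 2 (11.1%) were lower past 2-fold, against 1.5% of all genes, and 1 was higher, against 2.02%. Mecom was 89.9 CPM in control, 40.3 in Mll3/4SI and 124 in deleted, Ctnnal1 was 27.7, 13.2 and 24.8, and Ly6a (Sca-1) was 8.64 and 22.4 CPM in control and Mll3/4SI. No gene of the S phase, G2/M, cell cycle control or MLL3/4 complex lists passed 2-fold. Kmt2c itself was 85.7, 68.6 and 64.5 CPM and Kmt2d 27.3, 17.1 and 19.8 in control, Mll3/4SI and deleted, and 5′ counts over the whole gene do not show whether a deletion or a point change is present.

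Among all genes, the 12 largest ratios upward in Mll3/4SI were Serpina3i, Fcer1a, Pakap, Sgip1, Scin, Ms4a2, Cryab, Npy, Hspa1b, Igfbp7, Cpa3 and Hspa1a. Serpina3i, a serine protease inhibitor gene (ENSMUSG00000079014, chr12:104263122-104269372, +), had 1 UMI in control and 1247 in Mll3/4SI, in 302 of 357 cells, and 0 in deleted. At 3000 UMIs it was seen in 55.4% of Mll3/4SI cells without mast markers, 38.8% with them and 0.208% of control cells. It was also seen in 34.7% of Mll3/4SI Hlf+ and 32.2% of Mll3/4SI Cpa3+ cells. Unthinned shares in these 5 sets of cells were 89.3%, 80.3%, 0.205%, 66.3% and 72.4%. Serpina3i belongs to a family of near-identical copies, so its count can hold reads of relatives. Serpina3g moved the other way, 333 CPM in control, 97.3 in Mll3/4SI and 451 in deleted. The heat shock copies Hspa1a and Hspa1b were 0.768 and 2.50 CPM in control and 21.7 and 52.4 in Mll3/4SI, and reads of one can be counted for the other. Of 16 stress and heat shock genes, which also respond to tissue handling, 6 were 2-fold or more higher in Mll3/4SI, against 2.02% of all genes: Hspa1a, Hspa1b, Cryab, Fos, Fosb and Jun. Jun was 58.0 CPM in control, 122 in Mll3/4SI and 44.6 in deleted, and the list's median log2 ratio was 0.34. Over the 17 genes behind this median, it was 0.24 without mast marker cells, 0.25 with Pf4 at 30 or more UMIs and 0.13 in the other kept cells. Over only the genes that still had 20 UMIs, it was 0.12 without mast marker cells (15 genes) and 0.16 with Pf4 at 30 or more (13 genes). Serpina3i, Npy, Hspa1a and Hspa1b kept log2 ratios of 3.63 or more without mast markers, where Pakap and Sgip1 stood at 0.66 and 0.46.

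The 12 largest ratios downward were Tpm3-rs7, Gdpd3, Zfp976, Hoxb3os, Cd74, Hoxb2, Car3, Chil3, Myom1, Nupr1, Vwf and Clu. Tpm3-rs7, a processed copy of the tropomyosin gene Tpm3, was 49.6 CPM in control and 1.53 in Mll3/4SI, with 0 UMIs in deleted. It was also lower in the other kept cells (log2 ratio −4.09). Hoxb2 was 13.1 and 0.877 CPM, and Hoxb3os lies on the opposite strand at the same place. Nupr1, a stress-induced nuclear protein gene, was 90.3 CPM in control (184 cells), 16 in Mll3/4SI (35 cells) and 119 in deleted. Myom1, a sarcomere gene, was 44.2, 7.23 and 9.92 CPM, and it was near 0 in the other kept cells of both libraries (0.992 and 0.402 CPM). Chil3 rests on few cells, with 74 of its 118 control UMIs in 1.

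**Figure D5:**
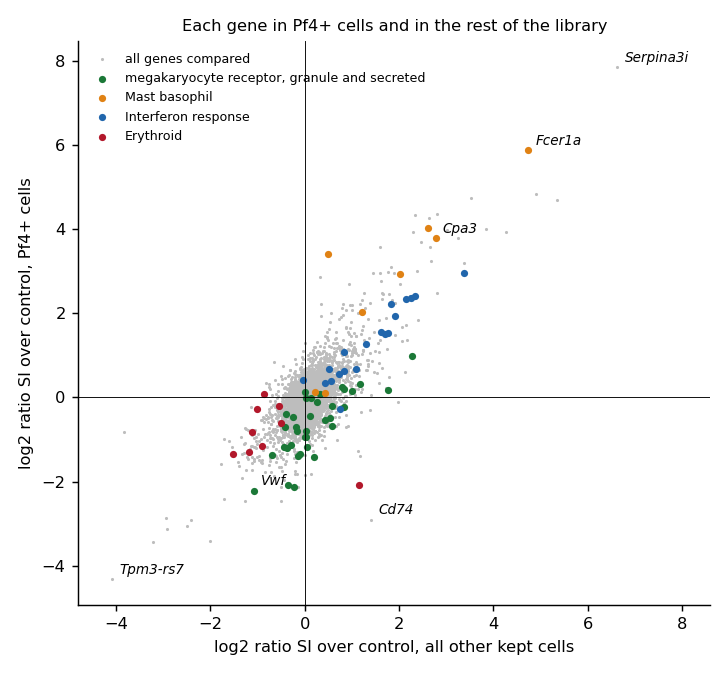
Log2 ratio of Mll3/4SI over control in Pf4+ cells (vertical) against the ratio in all other kept cells (horizontal), 1 point per gene with 50 or more UMIs, with megakaryocyte receptor and granule, mast, interferon and erythroid genes coloured. Serpina3i and Tpm3-rs7 lie far out on both axes, and Vwf, at −2.21 against −1.09, is farther from 0 in Pf4+ cells.

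Pf4+ cells also varied among themselves in control. The receptor sum was 1639 CPM in cells with 3 to 9 Pf4 UMIs, 2154 with 10 to 29 and 2816 with 30 or more. In Mll3/4SI it was 1041, 1633 and 2242 CPM, below control at each level. The levels share the Pf4 count with the rule, and higher counts also come with deeper cells, so the order is a description. Over 11486 kept control cells thinned to 3000 UMIs, the genes most like Pf4 by Spearman correlation, among 10668 ranked, included Cavin2 (0.46), Gp1bb (0.39), Itga2b (0.37), Trpc6 (0.35), Rab27b (0.35), Vwf (0.34), Nrgn (0.32), Plek (0.32) and Cd9 (0.31). These cells come from 1 library and most hold 0 Pf4.

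In the 10 deleted Pf4+ cells, Itga2b per cell was 1 to 16 UMIs with a median of 6. Most megakaryocyte genes were present, but 20 of the 119 genes of the 5 lists had 0 UMIs, against 2 in the deeper control sum. Of the 18 markers, 2 had 0 UMIs. Cd9, and Mecom of the stem cell genes, had UMIs in 10 of 10 cells, Gp1bb in 8 and Gp9 in 2. Nrgn, at 139 against 623 CPM in control, and Serpine2, at 29.8 against 169, were among the lower ones. Def8, a regulator of lysosome trafficking, stood at 1488 CPM against 45.5 in control and was present in all 10 cells, with 128 of 300 UMIs in 1 of them. It was high across that library, at 1314 CPM in deleted Hlf+ cells against 91.8 in control, and 1688 against 59.8 in the other kept cells. The metallothionein gene Mt1 was 461 against 109 CPM, with 239 against 39.3 in Hlf+ cells and 354 against 412 in the other kept cells. B lineage genes summed to 24 UMIs, or 119 CPM (76.3 to 177), above the 36.5 CPM (31.5 to 42.1) of control Pf4+ cells and the 41.2 of Mll3/4SI, and below the 13105 CPM of the other deleted cells. Ebf1, a B lineage factor, had a UMI in 50% of the 10 deleted cells and in 0% of control Pf4+ cells, at unequal depth. The part of free RNA in this was not tested. In the library around them, 1485 of the 14915 kept cells of this library had fewer than 10 Cpa3 and fewer than 5 Cd79a UMIs. No Pf4+ cell of any Kit+ library had an assembled immunoglobulin contig. Among kept cells, 36 of 11891 in control, 26 of 12081 in Mll3/4SI and 3397 of 14915 in deleted had one. The absence says little, since contigs were rare in control and Mll3/4SI and the deleted library had 10 Pf4+ cells. The rule also left out cells with 5 or more Cd79a UMIs.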

How the data were processed

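The authors deposited UMI counts per gene and barcode for 4 libraries of the 10x 5′ kit, made with Cell Ranger 7.1.0 on mm10, per the submitters' processing notes. The deposited matrices list 32285 genes, and all files were read as they are. Contig annotations served only to count cells with an immunoglobulin contig. Each library is its own group by its title, so values carry counting intervals and no test.

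UMIs were summed over the Pf4+ cells of a library and divided by their total (CPM). Ratios used a pseudocount of 1 CPM. A gene was compared with at least 50 UMIs in the library with more, a list median with at least 20, and 2-fold was the mark. Intervals are exact Poisson, Clopper-Pearson or conditional binomial at 95%. Each cell was thinned once to 3000 UMIs for shares of cells with a UMI, leaving out 7 control and 3 Mll3/4SI cells that were shallower. Scrublet (scanpy 1.11.5, expected rate 8%) gave doublet scores, and no cell was removed by them. Gene positions are GENCODE M21 (GRCm38). The calculation was tested on simulated counts.

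Genes were named from the lists when past 2-fold or as their role asks, with the 12 largest ratios each way and the 10 genes most like Pf4. The 12 skip receptor segments, sex-linked marker genes, mitochondrial and ribosomal genes and numbered predicted genes. The members and lists were chosen with earlier results of these data known. The selections by mast markers and by 30 Pf4 UMIs were added after seeing the data. Alternatives were the cell filter, doublet removal, Pf4 and Itga2b minimums, upper limits, thinning, denominator, pseudocount, total, centring, per-cell means, UMI minimum and fold. A few genes of the lists are not reported here by name.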

Additional observations from a re-analysis of the deposited data

Results flagged for a closer look

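In the control B220lo library, which no comparison used, 4 barcodes passed the Pf4 rule. They held 175, 168, 8 and 3 Pf4 UMIs, and together 354 UMIs of Pf4 and 18 of Itga2b. Gp9 had 0 UMIs in them and Cpa3 had 25.

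In a separate set, 4 genes were lower by 2-fold or more in Mll3/4SI Pf4+ cells and higher by 2-fold or more in the other kept cells, and for each the difference between the populations was not tested. Hbb-bs, beta globin, had a log2 ratio of −2.09 in Pf4+ cells and 1.14 in the other cells. The class II antigen presentation genes H2-Aa, H2-Eb1 and Cd74 had −1.26, −1.38 and −2.91 in Pf4+ cells, and 1.13, 1.16 and 1.41 in the other cells. Single control cells held a large part of these counts: 288 of 376 Cd74 UMIs, 97 of 210 for H2-Aa and 55 of 199 for H2-Eb1.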

How the results depend on the processing

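The log2 ratio of the share of Pf4+ cells (−0.47) kept its direction under each of the 10 alternatives. It was −0.23 with Pf4 at 2 UMIs, −0.76 at 5 and −1.07 with cells thinned to 5000 UMIs. It was −1.53 with mast marker cells removed from the Pf4+ cells only and −1.73 with Pf4 at 30. Both were chosen after seeing the data. With Cpa3 and Cd79a cells left out of Pf4+ and kept cells alike, the ratio was −0.36. The 319 genes past 2-fold (183 higher, 136 lower) became 100 (29 and 71) without mast marker cells and 111 (30 and 81) with Pf4 at 30. With a pseudocount of 10 CPM they were 148 (94 and 54), and the list medians were nearer 0: mast 1.503 (from 3.17), interferon 0.90 (from 1.39), erythroid −0.55 (from −1.29) and granule −0.42 (from −0.69). With 20 UMIs required they were 523 (288 and 235), with 100 UMIs the lower genes were 88, and at 1.5-fold 855 passed (401 and 454). The megakaryocyte median (−0.28) was −0.13 without mast marker cells. The granulocyte median (0.85) turned to −0.89 with Pf4 at 5, −0.76 at 30 and −0.11 without mast marker cells. The stress median (0.34 over 17 genes) was 0.12 over 15 genes without mast marker cells and 0.16 over 13 genes with Pf4 at 30. Over the same 17 genes these were 0.24 and 0.25. Of 77 named genes past 2-fold, 42 stayed past it without mast marker cells, 52 with Pf4 at 30, 57 with the larger pseudocount and 71 or more under each of the other alternatives. The direction turned for S100a9 (−3.36) and Camp (−6.01) with Pf4 at 5, for Camp (−0.44) without mast marker cells, and for Ly6a (−0.0021), S100a9 (−5.26) and Camp (−4.04) with Pf4 at 30. The causes were not tested. No paired analysis was possible because each group is 1 library. The deleted library's 10 cells limit its values: a count of 0 allows 18.3 CPM.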
